A study of Mus musculus with 3 samples.

Results

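Cadherin and protocadherin genes were followed across the cell types of the mouse medial prefrontal cortex, from neuron subclasses to glia and the cells of blood vessels. The members were chosen by name: every gene row whose symbol is Cdh followed only by digits, or begins with Pcdh, with at least 100 unique molecular identifiers (UMIs, tags that count captured transcripts) over all libraries. Of 32285 gene rows, 92 had such a name and 83 reached the minimum, 20 of them Cdh genes and 63 Pcdh genes. Cdh26 with 100 UMIs, Pcdha3 with 114 and Cdh1 with 116 lay just inside the minimum, and Pcdha2 with 93, Pcdha7 with 88 and Pcdha6 with 87 lay just outside. The other rows left out were Pcdhac1 and Pcdha8 with 53 UMIs each, Cdh3 with 17, Cdh17 with 8, Cdh16 with 5 and Pcdhb1 with 2. The members held 2207467 UMIs, or 0.535% of all UMIs, and Pcdh9 alone held 49.4% of the members' UMIs.

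Transcripts of single cells were counted in droplets, in 3 libraries, 1 from female mice in estrus, 1 from female mice in diestrus and 1 from male mice. Each library pooled the tissue of 2 mice, with no strain, age or genotype stated in the labels, and the 2 animals of a library cannot be told apart. The tissue was digested with papain and 15000 cells were loaded per library. Per-library values below are always in the order estrus, diestrus, male, and levels are in CPM, which is UMIs per 1000000 UMIs of nuclear genes in the summed cells of a class. Tags were read at the 3′ end of transcripts, so levels were not divided by gene length.

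The labels call the cells neurons, yet markers of glia, myeloid and vascular cells were abundant, and cells of all types were used. After cell filters 12709, 14546 and 16081 cells remained, with median UMI counts of 6294, 4770 and 3996, and pairs of libraries shared 68 to 97 cell barcodes. Cells were assigned to classes by marker genes, none of them a member. The gate gave 1557, 1927 and 1807 glutamatergic neurons, 184, 316 and 313 GABAergic neurons, and 9 classes that are not neurons. No class was given to 8.80%, 28.0% and 28.4% of the cells. Glutamatergic neurons were split into 6 subclasses: L2/3 IT, L4/5 IT and L6 IT cells (intratelencephalic, named by layer), L5 ET cells (extratelencephalic), L5/6 NP cells (near-projecting) and L6 CT cells (corticothalamic). GABAergic neurons were split into Sst, Pvalb, Vip, Lamp5 and Sncg cells, the smallest of them with 17, 23 and 23 cells. Oligodendrocyte precursor cells are called OPC and committed oligodendrocyte precursors COP.

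Cadherins are calcium-dependent adhesion proteins that bind across cell contacts, mostly to cadherins of the same or a similar kind. Classical type I and type II cadherins hold on to the actin skeleton through catenins, and in the cortex the type II genes are known for patterns that differ from layer to layer. Protocadherins lack the catenin-binding tail. Some of the non-clustered delta protocadherins signal to actin through the WAVE complex. The clustered alpha, beta and gamma genes lie side by side on 1 chromosome and are known for giving single neurons different combinations of isoforms.

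Class contrasts were tested with edgeR's quasi-likelihood test on UMIs summed per library and class, with library as a term, and genes were called at an adjusted p under 0.05 over all genes tested. The 3 libraries served as the replicates, although they differ in sex and stage. As background for each count, the share of all tested genes with the same call is given.

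More members than the background share were higher in neurons, OPC, COP and astrocytes. Fewer were higher in oligodendrocytes and in myeloid, endothelial and smooth muscle cells, and pericytes lay near the background. Of 76 members tested over the broad classes, 57 were higher in neurons than in the mean of the 9 other classes, against 40.1% of all genes, and 6 were lower, against 28% of all genes. The median log2 fold change of the members was 1.96, beside 0.14 over all genes tested. This contrast averages log values over the other classes, and microglia, border macrophages and smooth muscle cells had more members lower than higher. Of 31 members with at least 20 CPM in a broad class, 5 were highest in glutamatergic and 3 in GABAergic neurons. The rest of the 31 were highest in a class that is not neurons. Among the classes that are not neurons, 53 members were higher in OPC than in the mean of the other 8 classes (background 25.8%) and 1 was lower (background 20.4%). Astrocytes had 31 higher (background 31.7%) and 6 lower (background 21.8%). In microglia 6 were higher (background 34.8%) and 21 lower (background 19%), and in border macrophages 1 was higher (background 14.4%) and 17 lower (background 13.4%). COP had 28 higher (background 15%) and 2 lower (16.3%), and oligodendrocytes 15 higher (26.3%) and 8 lower (22%). Endothelial cells had 15 higher (29.3%) and 13 lower (18.8%), pericytes 16 higher (18.8%) and 11 lower (14.1%), and smooth muscle cells 4 higher (20%) and 12 lower (13.5%). Called in either direction were 54 in OPC (46.2%), 37 in astrocytes (53.5%), 30 in COP (31.3%), 23 in oligodendrocytes (48.4%), 27 in microglia (53.8%) and 18 in border macrophages (27.8%). In vascular cells they were 28 in endothelial cells (48.1%), 27 in pericytes (32.9%) and 16 in smooth muscle cells (33.6%). Leaving out the estrus library cut the 6 members lower in neurons to 2, and leaving out diestrus cut them to 3. Over all genes, that contrast called 11788 of 17307 in either direction with all libraries. It called 11015 of 17662 without estrus and 10158 of 17467 without diestrus.

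**Figure D1:**
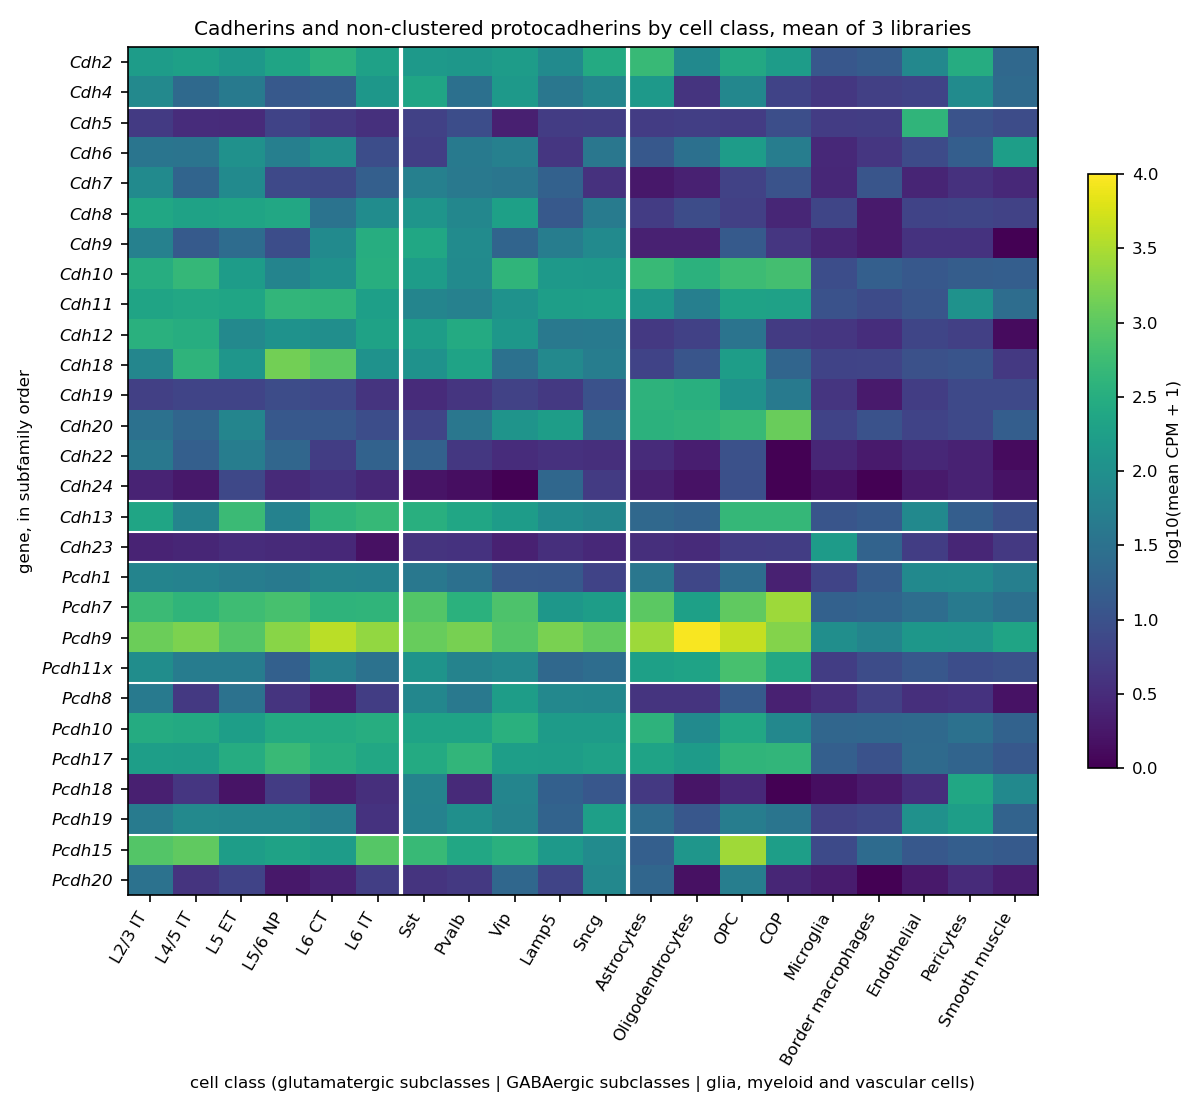
Heat map of the non-clustered members that reached 20 CPM in some class, with genes in subfamily order on the vertical axis and 20 cell classes on the horizontal axis; colour is log10 of the mean CPM of the 3 libraries with 1 added. Cdh5 is bright in endothelial cells, Cdh23 in microglia and Pcdh18 in pericytes, while Pcdh9 is high in all neurons, astrocytes and the oligodendrocyte lineage, highest in oligodendrocytes at 9205 CPM.

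Between the excitatory and inhibitory neurons, 11 members were higher in glutamatergic neurons (background 17.1%) and 15 were higher in GABAergic neurons (background 14.4%). Of 13 type II cadherins, 6 were higher in glutamatergic and 2 in GABAergic neurons, whereas 8 of 21 beta protocadherins were higher in GABAergic neurons and 0 in glutamatergic neurons. Cdh18 had the largest difference towards glutamatergic neurons, with a log2 fold change of 2.20 (SE 0.26, adjusted p = 4.8e-08). Pcdh18 had the largest towards GABAergic neurons, at -3.91 (SE 0.22, adjusted p = 2.3e-14). These counts moved with the libraries used: 15 members were higher in glutamatergic neurons without estrus, 6 without diestrus and 9 without the male library. Members lower there were 15, 8 and 8 in the same order. Calls over all genes, in either direction, moved as well. They were 5446 of 17307 tested with all libraries and 6237 of 17662 without estrus. Without diestrus they were 2875 of 17467, and without the male library 4058 of 17283.

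Among the glutamatergic subclasses 39 of 71 tested members differed (background 66.6%), and 27 of these were among the 29 tested that are not clustered, including 12 of 13 type II, 3 of 3 type I, 4 of 4 delta1 and 5 of 5 delta2 genes. The share over all members tested was below the background, and whether clustered and non-clustered genes differ in it, given the few UMIs of the clustered genes, was not tested. Among the GABAergic subclasses 24 of 27 tested members differed (background 47.7%). Against the mean of the other glutamatergic subclasses, L2/3 IT cells had 28 of 71 members called (background 37.1%), 21 higher (21%) and 7 lower (16.1%). L5/6 NP cells had 29 called (41.1%), 15 higher (19.7%) and 14 lower (21.5%). The others were 18 in L4/5 IT (27.6%), 25 in L5 ET (30.3%), 23 in L6 CT (34.2%) and 25 in L6 IT cells (27%). Of 27 members tested in interneurons, 16 were called in Sst (21.1%), 15 in Pvalb (28.8%), 16 in Vip (19.2%), 15 in Lamp5 (21.6%) and 14 in Sncg cells (24.4%). Many members passed the filter for low counts only where they were abundant, so these counts cover the detectable members. For 10 of 23 members with at least 20 CPM in a glutamatergic subclass, every library of the highest subclass was above every library of the second (43.5%, against 23.8% of all genes at that level). For GABAergic subclasses this held for 9 of 24 members (37.5%, against 19.4% of all genes). Over the 11 broad classes it held for 17 of 31 (54.8%, against 49.0% of all genes), and among the 9 that are not neurons for 15 of 26 (57.7%, against 48.7%).

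Among the type II cadherins, 5 lie in a row on chromosome 15, in the order Cdh6 (13028701 to 13173675, minus strand), Cdh9 (16728756 to 16857094, plus), Cdh10 (18818947 to 19014236, plus), Cdh12 (20449265 to 21589533, plus) and Cdh18 (22549022 to 23474418, plus), and each had its own order of subclasses. Of the subclasses compared, Cdh9 was the mark of L6 IT cells, Cdh18 of L5/6 NP and L6 CT cells, Cdh12 of the upper IT cells, and Cdh6 of L5 ET and L6 CT cells. Cdh10 was highest in L4/5 IT cells, with overlap with the second subclass. The bases before the RefSeq starts of Cdh9 and Cdh18 are shown because these genes were highest in different deep-layer subclasses of those compared. Both are from the mouse build GRCm38.p6, 5′ to 3′ on the plus strand, kept to bases in no annotated exon of the gene, and capitals mark the letters CANNTG, the motif that basic helix-loop-helix factors of neurons can bind (the motif reads the same on both strands).
Cdh9, chr15:16728665-16728755: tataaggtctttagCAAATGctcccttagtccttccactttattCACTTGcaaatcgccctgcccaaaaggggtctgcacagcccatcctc
Cdh18, chr15:23036213-23036454: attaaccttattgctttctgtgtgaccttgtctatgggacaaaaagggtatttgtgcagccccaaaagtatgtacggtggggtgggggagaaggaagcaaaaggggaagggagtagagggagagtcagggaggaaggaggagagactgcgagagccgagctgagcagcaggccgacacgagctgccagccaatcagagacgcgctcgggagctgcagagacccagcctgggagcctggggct
The stretch of Cdh9 ends 159 bases before its RefSeq start and that of Cdh18 ends 8 bases before. The 91 bases of Cdh9 held 2 matches, a number reached by 6.86% of 27025 RefSeq promoters over the same stretch. The 242 bases of Cdh18 held 0, while 65.2% of promoters held at least 1. The RefSeq start of Cdh18 lies inside the longer GENCODE gene model, so another start of the gene is not covered.

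Cdh9, which pairs with Cdh6 and Cdh10 in known binding groups, was 208, 352 and 361 CPM in L6 IT cells. The next subclass, L6 CT, had 53.3, 91.6 and 97.4 CPM, and L5/6 NP cells had 2.52, 7.26 and 13.6 CPM. All 3 libraries of L6 IT cells lay above every library of the other subclasses, and L6 IT cells differed from the mean of the others by 3.69 on the log2 scale (SE 0.10, adjusted p = 2.9e-16). In GABAergic neurons Cdh9 was highest in Sst cells, at 194, 206 and 321 CPM, against 72.8, 88.1 and 90.5 CPM in Pvalb cells. Those ranges did not overlap either, and Sst cells were higher than the other subclasses by 2.26 (SE 0.16, adjusted p = 6.0e-09). Outside neurons Cdh9 was at most 16.0 CPM in every library of the 9 classes, and smooth muscle cells held 0 UMIs in each library, where 3 counts would have been 2.34, 2.68 and 8.72 CPM.

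Cdh18 was 1441, 1377 and 1432 CPM in L5/6 NP cells. L6 CT cells followed with 826, 995 and 986 CPM, and L2/3 IT cells were lowest with 49.8, 78.7 and 76.4 CPM. The libraries of L5/6 NP cells were close together and above those of the other subclasses compared. Their log2 fold change against these was 2.77 (SE 0.09, adjusted p = 1.8e-15). L6b cells, the deepest cortical neurons and too few to compare, had 1788 CPM in diestrus and 2087 CPM in male. L6 CT cells were also higher, by 2.10 (SE 0.10), and L2/3 IT cells lower, at -2.46 (SE 0.14). Among interneurons Cdh18 was highest in Pvalb cells, at 119.9, 264 and 230.2 CPM, though the estrus value lay within the range of Sst cells (65.1, 136 and 125 CPM).

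Cdh12 had the opposite slope across layers. It was 280.2, 363 and 404 CPM in L2/3 IT cells and 251, 322 and 347 CPM in L4/5 IT cells, and these ranges overlapped. L5 ET cells were lowest with 51.6, 80.3 and 95.5 CPM. The log2 fold changes were 1.37 (SE 0.07) for L2/3 IT, 1.17 (SE 0.07) for L4/5 IT and -1.32 (SE 0.10) for L5 ET, each called. In Pvalb cells Cdh12 was 179.9, 345 and 322 CPM, higher than in the other interneurons by 1.78 (SE 0.17, adjusted p = 2.0e-07).

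Cdh10 was highest by the mean in L4/5 IT cells, with 271, 553 and 570.0 CPM, although the range overlapped that of the second subclass. L4/5 IT cells were above the mean of the other subclasses by 1.59 (SE 0.12, adjusted p = 9.5e-10). The lowest were L5/6 NP cells with 20.2, 89.7 and 75.7 CPM. In both L4/5 IT and L5/6 NP cells the estrus library was below the other libraries. Vip cells had 244, 461 and 516 CPM and were higher than the other interneurons by 1.71 (SE 0.14). Cdh10 was also a glial gene, at 433, 761 and 717 CPM in COP and 493, 549 and 464 CPM in astrocytes, and was under 30 CPM in every library of the myeloid and vascular classes.

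Cdh6 was 99.7, 114 and 101 CPM in L5 ET cells and 65.4, 99.96 and 111 CPM in L6 CT cells. It was nearly missing from L6 IT cells, at 4.87, 8.53 and 10.2 CPM, a log2 fold change of -2.85 (SE 0.16, adjusted p = 1.5e-11). So the subclass with the most Cdh9 had the least Cdh6 of the 6. Among interneurons Sst cells (1.2, 4.78 and 7.84 CPM) and Lamp5 cells (4.86, 3.32 and 1.78 CPM) lay under all libraries of Pvalb, Vip and Sncg cells. The Sst value was called in the data as gated (-2.30, adjusted p = 0.0011) but not with a stricter gate (-1.73, adjusted p = 0.063).

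**Figure D2:**
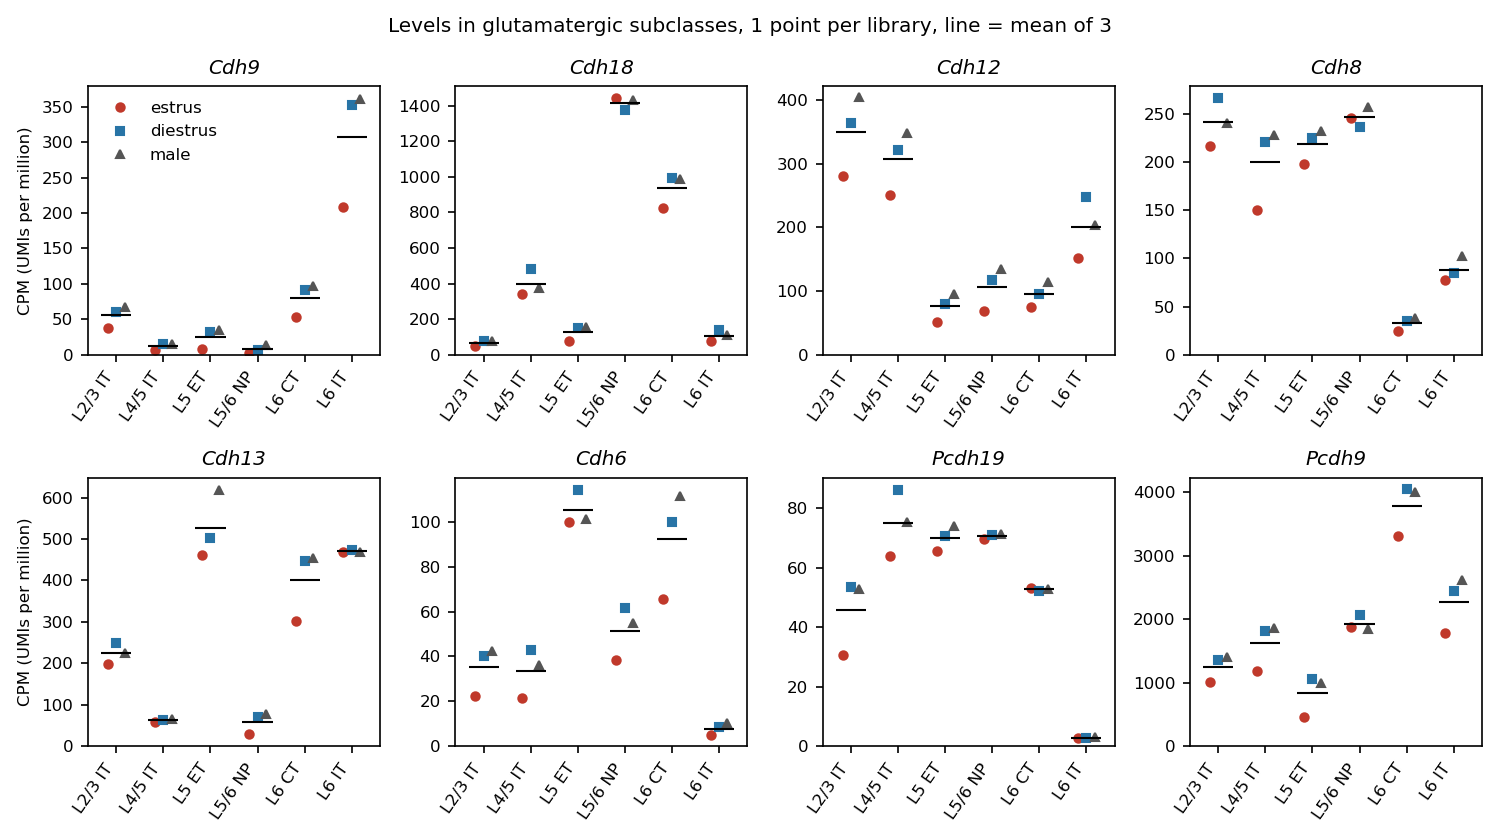
Levels of 8 members in the 6 glutamatergic subclasses: the horizontal axis is the subclass, the vertical axis CPM from 0, each point is 1 library and each line the mean of 3. Cdh9 stands highest in L6 IT cells, at 208 to 361 CPM, Cdh18 in L5/6 NP cells, at 1377 to 1441 CPM, and Pcdh19 is at 2.75 to 3.07 CPM in L6 IT cells.

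The other type II cadherins of neurons had further patterns. Cdh8, a synaptic cadherin of corticostriatal circuits, was 24.3, 35.5 and 37.8 CPM in L6 CT cells. It was 217, 267 and 241 CPM in L2/3 IT cells and 246, 236 and 257 CPM in L5/6 NP cells. L6 CT cells lay under every library of the other subclasses, with a log2 fold change of -2.51 (SE 0.10, adjusted p = 1.5e-14). In interneurons Cdh8 was highest in Vip cells, at 121, 202 and 241 CPM, and lowest in Lamp5 cells, at 4.86, 16.6 and 14.3 CPM, and Lamp5 cells did not overlap any other subclass.

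Cdh11, a cadherin also known from mesenchyme, was 406, 445 and 412 CPM in L5/6 NP cells and 394, 411 and 431 CPM in L6 CT cells, with overlapping ranges. Both were higher than the other subclasses, by 0.71 (SE 0.06) and 0.75 (SE 0.06). Cdh7 was 67.1, 76.1 and 98.1 CPM in L2/3 IT cells and 41.8, 65.2 and 140.0 CPM in L5 ET cells, and under 24 CPM in every library of the other 4 glutamatergic subclasses. Cdh22 had its highest levels in the same pair of subclasses, at 52.4, 47.5 and 46.1 CPM in L5 ET and 45.9, 38.4 and 32.7 CPM in L2/3 IT cells. Cdh24 was low everywhere except Lamp5 cells, at 22.7, 15.5 and 25.0 CPM, and the next interneurons, Sncg cells, had 1.42, 1.27 and 9.36 CPM. Lamp5 cells differed from the other interneurons by 4.99 (SE 0.61, adjusted p = 1.5e-05).

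Outside neurons, Cdh5 was high in 1 class, while Cdh19, Cdh20 and Cdh6 were each high in more than 1. Cdh5, the VE-cadherin of endothelial junctions, was 409.9, 414 and 429 CPM in endothelial cells and at most 14.2 CPM in any library of the other 10 broad classes. Endothelial cells differed from the other classes that are not neurons by 6.44 on the log2 scale (SE 0.16, adjusted p = 6.8e-25). When each cell was thinned to 2000 UMIs, 50.4%, 54.7% and 53.8% of endothelial cells held a Cdh5 UMI, beside 0.775%, 0.379% and 0.454% of glutamatergic neurons. Of 2765, 2099 and 1659 endothelial cells, 2544, 1784 and 1002 had at least 2000 UMIs.

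Cdh19, a cadherin known from glia of peripheral nerves, was 540.5, 348 and 256 CPM in astrocytes and 400.0, 321 and 278 CPM in oligodendrocytes. These classes overlapped, and both lay above OPC with 108, 112 and 92.4 CPM. In either broad class of neurons Cdh19 was at most 6.80 CPM. Cdh20 was highest in COP, at 1419, 1185 and 1112 CPM, above OPC at 578, 514 and 409 CPM in every library. The difference of COP from the other 8 classes was 5.03 (SE 0.18, adjusted p = 1.6e-20). Astrocytes and oligodendrocytes held 308 to 446 CPM and 298 to 489 CPM of Cdh20. Among interneurons, Lamp5 cells (154, 169 and 178 CPM) and Vip cells (117, 157 and 75.0 CPM) were higher than the others, and Sst cells lowest at 7.17, 4.09 and 5.23 CPM.

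Cdh6 had a vascular site as well. Smooth muscle cells held 136, 225 and 163 CPM, against 8.10, 23.9 and 11.3 CPM in pericytes, and OPC held 158, 153 and 178 CPM. Smooth muscle and OPC overlapped, and each was above every library of the other classes that are not neurons. The log2 fold change of smooth muscle cells was 3.76 (SE 0.20, adjusted p = 4.4e-16).

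**Figure D3:**
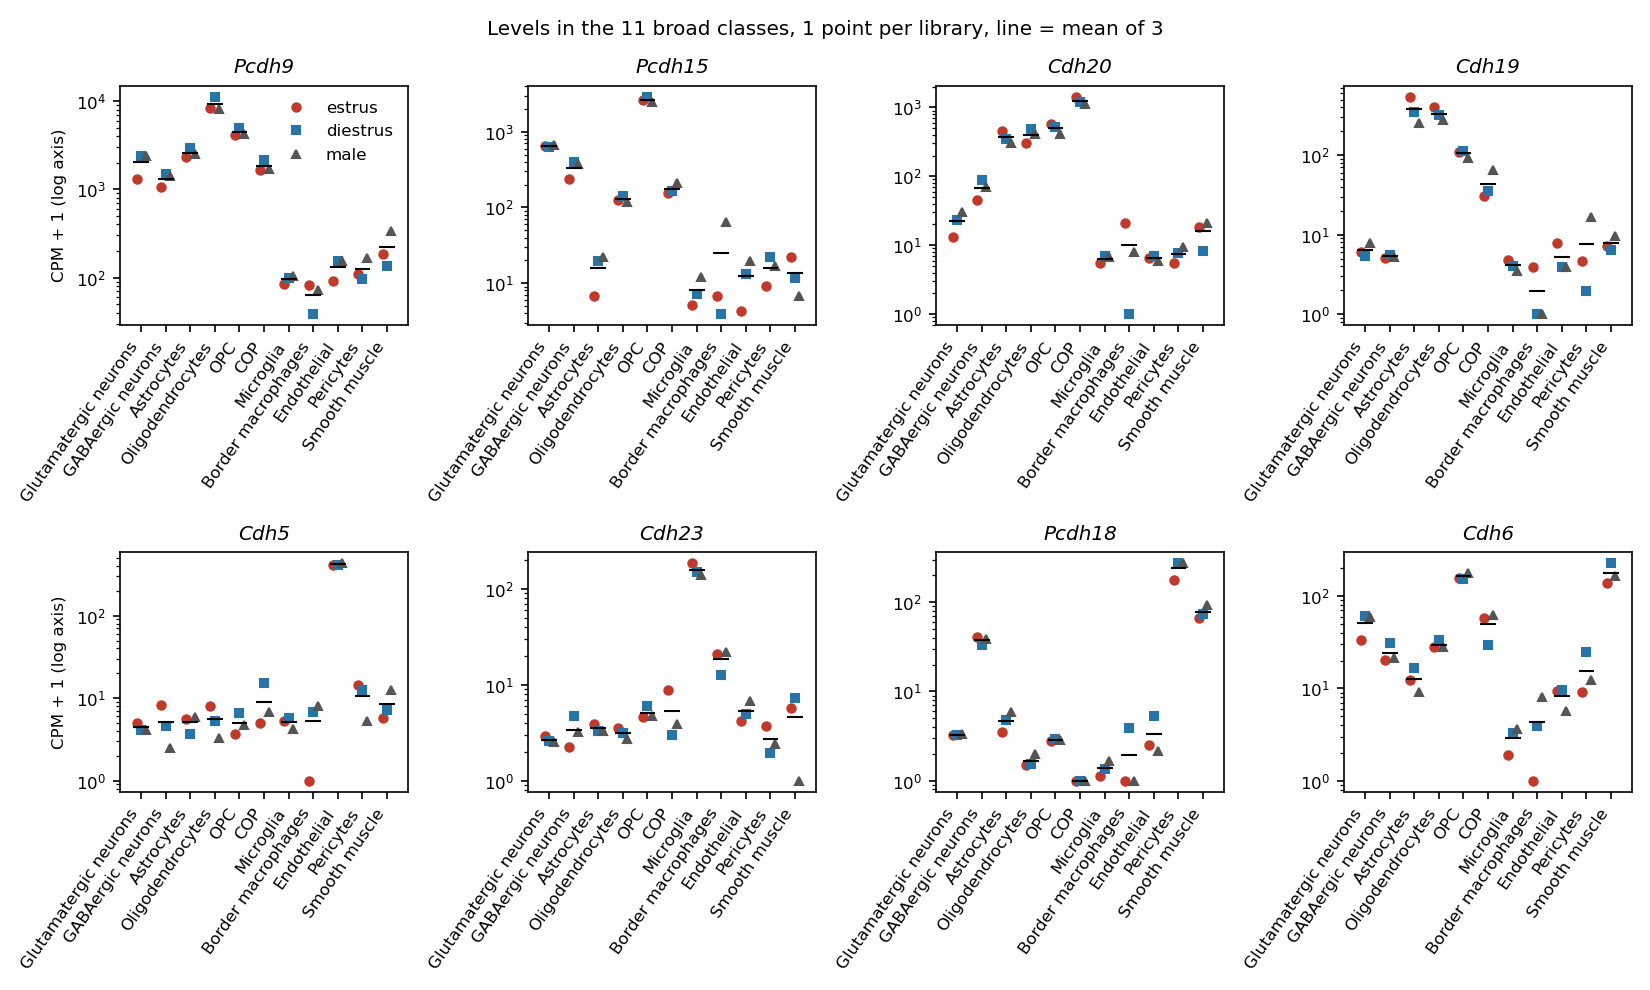
Levels of 8 members in the 11 broad classes, with CPM plus 1 on a log axis, 1 point per library and a line at the mean of 3. Cdh5 lies at 409.9 to 429 CPM in endothelial cells, Cdh23 at 139 to 183 CPM in microglia, Pcdh18 at 178 to 271 CPM in pericytes and Pcdh15 at 2449 to 2892 CPM in OPC.

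The type I cadherins were fewer. Cdh2, the N-cadherin of neurons and glia, was 531, 501 and 471 CPM in astrocytes and 189.8, 383 and 315 CPM in pericytes, where it is known to join pericytes to endothelium. Astrocytes lay above all other classes. In neurons it was highest in L6 CT cells, at 309.7, 393 and 423 CPM, above the other glutamatergic subclasses by 1.10 (SE 0.07, adjusted p = 1.1e-10), and in Sncg cells, at 186, 368 and 281 CPM. Cdh4, the R-cadherin, was 110.4, 162 and 156 CPM in astrocytes, its highest broad class by the mean, although the range overlapped that of GABAergic neurons. Astrocytes differed from the other classes that are not neurons by 3.70 (SE 0.19). Cdh4 was 126, 139.8 and 123 CPM in L6 IT cells and 162, 239 and 276 CPM in Sst cells. L6 IT cells lay above every library of the second subclass, L2/3 IT, with a log2 fold change of 2.37 (SE 0.09). GABAergic neurons as a whole had 104, 123 and 134 CPM of Cdh4 against 49.3, 44.1 and 38.6 CPM in glutamatergic neurons (log2 fold change -1.34, SE 0.25). Cdh15 was at most 7.62 CPM in any glutamatergic library, highest in L6 IT cells. Cdh1, the E-cadherin of epithelia, was at most 2.03 CPM in every broad class and was not tested.

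Cdh13 is a cadherin without a transmembrane part, held to the membrane by a lipid anchor. It was 461, 503 and 619 CPM in L5 ET cells, 469, 473 and 469 CPM in L6 IT cells and 302, 446 and 455 CPM in L6 CT cells. L4/5 IT cells had 59.3, 64.6 and 65.1 CPM and L5/6 NP cells 30.7, 70.3 and 76.7 CPM. The high and low subclasses did not overlap, and the contrasts ran from 1.60 (SE 0.10) in L5 ET to -2.27 (SE 0.14) in L5/6 NP cells. L6b cells, too few to compare, had 772 CPM in diestrus and 747 CPM in male. Among interneurons Sst cells were highest with 289.9, 332 and 394 CPM. OPC (429, 526 and 433 CPM) and COP (485, 406 and 468 CPM) lay near L5 ET, L6 IT and L6 CT cells, and oligodendrocytes held 13.1, 19.0 and 21.9 CPM. Endothelial cells had 47.2, 64.9 and 119 CPM, above the mean of the other classes by 1.31 (SE 0.18).

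Cdh23, the long cadherin known from the tip links of hair cells, was a microglial gene here. Microglia had 183, 148 and 139 CPM, border macrophages 20.1, 11.5 and 21.1 CPM, and no other broad class reached 8 CPM in any library. Microglia differed from the other classes by 5.50 (SE 0.13, adjusted p = 4.3e-25). After thinning to 2000 UMIs, 28.3%, 23.5% and 22.1% of microglia held a Cdh23 UMI, against 0.323%, 0.434% and 0.227% of glutamatergic neurons. Of 3188, 2362 and 2172 microglia, 3102, 2166 and 1730 had at least 2000 UMIs. The 250 bases before its RefSeq start, on the minus strand of build GRCm38.p6, are shown because its level set microglia apart, and capitals mark GGAA or TTCC, the core letters bound by Ets-family factors, searched on both strands.
Cdh23, chr10:60696491-60696740: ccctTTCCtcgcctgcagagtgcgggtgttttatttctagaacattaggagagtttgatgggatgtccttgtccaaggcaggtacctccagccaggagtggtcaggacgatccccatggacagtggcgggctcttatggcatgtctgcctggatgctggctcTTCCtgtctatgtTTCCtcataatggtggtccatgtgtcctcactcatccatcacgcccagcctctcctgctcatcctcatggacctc
It held 3 matches, and 54.8% of 27025 promoters held as many. Pcdh15, the partner of Cdh23 in the tip link, had its own highest class elsewhere, in OPC. Cdh26 had 100 UMIs in all and at most 1.77 CPM in any broad class compared.

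Of the delta1 protocadherins, Pcdh9 was abundant in all neurons and neural glia. Oligodendrocytes held 8300.4, 11123 and 8192 CPM, OPC 4114, 4938 and 4187 CPM, and astrocytes 2313, 2938 and 2487 CPM. Every oligodendrocyte library was above every library of the other classes, with a log2 fold change of 4.76 against the other 8 (SE 0.13, adjusted p = 1.3e-23). The contrast of neurons with the 9 other classes, 1.53 (SE 0.12), averages log values over classes of which the myeloid and vascular ones are low. Microglia held 83.2, 98.6 and 104 CPM. At 2000 UMIs per cell a Pcdh9 UMI was found in 99.8%, 99.9% and 99.6% of oligodendrocytes and in 4.06%, 7.02% and 8.90% of microglia, at median depths of 8544, 8731 and 6349 UMIs in oligodendrocytes and 5327, 4517 and 3381.5 in microglia. As given above, some microglia had under 2000 UMIs, most of all in the male library. Whether free RNA gives the microglial share was not tested.

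Within glutamatergic neurons Pcdh9 was highest in L6 CT cells, at 3309, 4052 and 4011 CPM, and lowest in L5 ET cells, at 463, 1065 and 990.3 CPM. All libraries of L6 CT lay above the other subclasses, with a log2 fold change of 1.36 (SE 0.09, adjusted p = 1.8e-10). L5 ET cells were lower, at -1.32 (SE 0.12), although their diestrus value overlapped the L2/3 IT range. Interneuron subclasses differed less, from -0.58 (SE 0.13) in Vip to 0.42 (SE 0.12) in Lamp5 cells.

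Pcdh7, known also as NF-protocadherin, was highest in COP, at 2648, 2471 and 2704 CPM, against 968, 1268 and 974 CPM in OPC and 139.9, 231 and 198 CPM in oligodendrocytes. COP stood apart from all other classes (log2 fold change 4.98, SE 0.20). Sst cells (629, 1078 and 846 CPM) and Vip cells (760.0, 781 and 768 CPM) were above Lamp5 cells (142, 60.9 and 184 CPM) and Sncg cells (165, 157 and 175 CPM) in every library. Pcdh11x, on the X chromosome, was highest in OPC with 677, 763 and 650.4 CPM. Among the glutamatergic subclasses compared it was highest in L2/3 IT cells, with 72.3, 84.1 and 115 CPM. L6b cells, too few to compare, had more, at 226 CPM in diestrus and 301 CPM in male. Pcdh1 was 93.5, 68.8 and 73.9 CPM in endothelial cells, 72.9, 85.0 and 82.2 CPM in pericytes and 56.7, 57.6 and 56.4 CPM in glutamatergic neurons. GABAergic neurons had 22.6, 23.1 and 25.0 CPM, below all of these (1.36 higher in glutamatergic neurons, SE 0.21). All 4 delta1 genes, Pcdh1 among them, were called higher in astrocytes than in the mean of the other classes that are not neurons (background 31.7%).

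Of the delta2 protocadherins, Pcdh19, the X-linked gene known for an epilepsy of heterozygous females, was close to absent from L6 IT cells, at 2.75, 2.84 and 3.07 CPM. The other 5 glutamatergic subclasses held between 30.7 and 86.2 CPM in every library. The log2 fold change of L6 IT cells was -4.37 (SE 0.18, adjusted p = 1.7e-13). Among interneurons Sncg cells were highest, at 119, 234 and 184 CPM, and Lamp5 cells lowest, at 4.86, 26.6 and 21.4 CPM. Pericytes held 195, 161 and 167 CPM and endothelial cells 94.3, 122 and 95.2 CPM, both above every other broad class.

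Pcdh18 was a gene of mural cells and of some interneurons. Pericytes held 178, 271 and 271 CPM and smooth muscle cells 64.7, 73.2 and 93.0 CPM, with log2 fold changes of 7.43 (SE 0.20, adjusted p = 6.3e-23) and 5.83 (SE 0.28). GABAergic neurons held 40.1, 32 and 37.3 CPM against 2.21, 2.26 and 2.37 CPM in glutamatergic neurons. Within GABAergic neurons, Sst cells (61.0, 53.2 and 64.7 CPM) and Vip cells (85.1, 50.2 and 59.7 CPM) were high and Pvalb cells (1.43, 0 and 4.60 CPM) low, without overlap. COP held 0 UMIs in each library, where 3 counts would have been 5.94, 6.09 and 8.78 CPM. The stretch before the start of Pcdh18, on the minus strand of GRCm38.p6 and in no annotated exon of the gene, is shown because pericytes held more of this gene than any other class, while smooth muscle cells overlapped Sst and Vip cells. It ends 9 bases before the RefSeq start and has no capitals because it held 0 matches to CANNTG, which 65.0% of promoters held over the same stretch.
Pcdh18, chr3:49757326-49757566: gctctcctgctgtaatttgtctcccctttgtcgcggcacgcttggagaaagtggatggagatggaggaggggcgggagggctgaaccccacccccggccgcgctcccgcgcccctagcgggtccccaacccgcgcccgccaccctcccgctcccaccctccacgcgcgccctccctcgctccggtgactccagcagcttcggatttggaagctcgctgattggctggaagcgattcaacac
It held 22 CG pairs, where the median promoter held 5 over that stretch, and was 67.6% G or C.

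Pcdh8, known as arcadlin for its induction by synaptic activity, was highest in Vip cells, at 164, 159 and 181 CPM, above all other interneurons. In glutamatergic neurons it was 46.6, 43.2 and 38.1 CPM in L2/3 IT and 25.8, 35.0 and 31.7 CPM in L5 ET cells, and at most 5.79 CPM in the other 4 subclasses. L6 CT cells were lowest with 0.681, 1.22 and 1.30 CPM. Pcdh10 lay at 167 to 319.5 CPM over all libraries of the glutamatergic subclasses, with L5 ET lowest (-0.70, SE 0.06). Pcdh10 in astrocytes was 382, 365 and 393 CPM. Pcdh17 was 487, 416 and 395 CPM in COP and 397, 418 and 418 CPM in OPC, the highest broad classes. Among neuron subclasses it was highest in L5/6 NP cells, at 419, 578 and 539.7 CPM (1.06 above the others, SE 0.08), and in Pvalb cells, at 438, 446 and 385 CPM (1.03, SE 0.09).

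Among the remaining protocadherins, Pcdh15, which spans 1550 kb on chromosome 10, was 2632, 2892 and 2449 CPM in OPC. COP had 154, 164 and 208 CPM and oligodendrocytes 125, 141 and 117 CPM. OPC lay above all other classes, with a log2 fold change of 6.64 (SE 0.19, adjusted p = 7.5e-23). In glutamatergic neurons Pcdh15 separated the IT cells, at 778 to 1112 CPM in every library of L2/3, L4/5 and L6 IT cells, from the L5 ET, L5/6 NP and L6 CT cells, at 136 to 289 CPM. In Pvalb cells the estrus library, with 20 cells, had 42.8 CPM where the others had 359 and 343 CPM. Pcdh20 was highest in Sncg cells, at 69.6, 65.8 and 85.8 CPM, in OPC, at 51.1, 42.3 and 59.4 CPM, and in L2/3 IT cells, at 32.8, 29.2 and 30.9 CPM. Each of these was without overlap at its level. Pcdh12 was low, with 1.88, 6.20 and 2.92 CPM in endothelial cells and 3.60, 5.73 and 5.67 CPM in pericytes, and at most 0.187 CPM in either class of neurons.

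The clustered protocadherins, 9 alpha, 21 beta and 21 gamma genes, held 2.26% of the members' UMIs. All 9 alpha and 21 gamma genes and 2 of the beta genes share exon bases with another gene row, so their counts by gene are uncertain. How tags in shared exons were assigned was not tested, so the sums, the 2.26% share and the genes detected per cell are uncertain too. Summed beta genes were 163, 154 and 183 CPM in OPC, 104, 116 and 135 CPM in GABAergic neurons and 66.0, 83.6 and 78.1 CPM in glutamatergic neurons. Microglia had 7.45, 10.3 and 12.8 CPM and border macrophages 0 UMIs. GABAergic neurons lay above glutamatergic neurons and below OPC in all 3 libraries. All 21 beta genes were higher in neurons than in the mean of the other classes (background 40.1%), and 19 of 21 were higher in OPC than in the mean of the other classes that are not neurons (background 25.8%). Both means average log values and include the low microglia and border macrophages, so the first count does not set neurons above each other class. The summed beta genes were 117, 101 and 152 CPM in COP, above glutamatergic neurons as OPC were. Pcdhb9 had the largest abundance in OPC, at 40.3, 26.5 and 33.9 CPM (log2 fold change 4.73, SE 0.30).

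Alpha genes were nearly limited to neurons and OPC. Without Pcdhac2 their summed level was 21.1, 13.8 and 17.3 CPM in glutamatergic neurons and 25.1, 14.5 and 10.4 CPM in OPC. In astrocytes it was 0.132, 0.417 and 0.466 CPM. Only 5 of the 9 alpha genes passed the filter for low counts, and all 5 were higher in neurons (background 40.1%). With low levels in most other classes, they could pass mainly through neurons or OPC, so this count is no separate support. Pcdhac2 was 5.52, 3.30 and 4.34 CPM in glutamatergic and 10.1, 4.72 and 7.65 CPM in GABAergic neurons, a difference that was not called (adjusted p = 0.11).

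Gamma genes were in glia and vascular cells too. Their sum was 135, 124 and 160 CPM in OPC, 121, 93.3 and 133 CPM in astrocytes and 107, 87.3 and 126 CPM in COP, and these classes overlapped. Pericytes had 87.3, 77.3 and 126 CPM and glutamatergic neurons 54.3, 55.1 and 74.7 CPM. The OPC and astrocyte libraries were all above the glutamatergic ones. Against the other classes that are not neurons, 14 of 20 gamma genes were higher in astrocytes (background 31.7%) and 8 of 20 in OPC (background 25.8%). The C-type genes differed from one another. Pcdhgc3 was 24.6, 11.9 and 16.0 CPM in astrocytes and 23.3, 18.3 and 27.3 CPM in OPC, and 0.475, 0.305 and 0.645 CPM in glutamatergic neurons. Pcdhgc4, which neurons are known to need for survival, was 7.66, 5.73 and 5.04 CPM in GABAergic and 1.13, 1.96 and 1.88 CPM in glutamatergic neurons (-1.82, SE 0.33). Pcdhgc5 was the reverse, at 7.30, 6.05 and 8.35 CPM in glutamatergic and 3.93, 2.02 and 2.24 CPM in GABAergic neurons (1.51, SE 0.29).

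**Figure D4:**
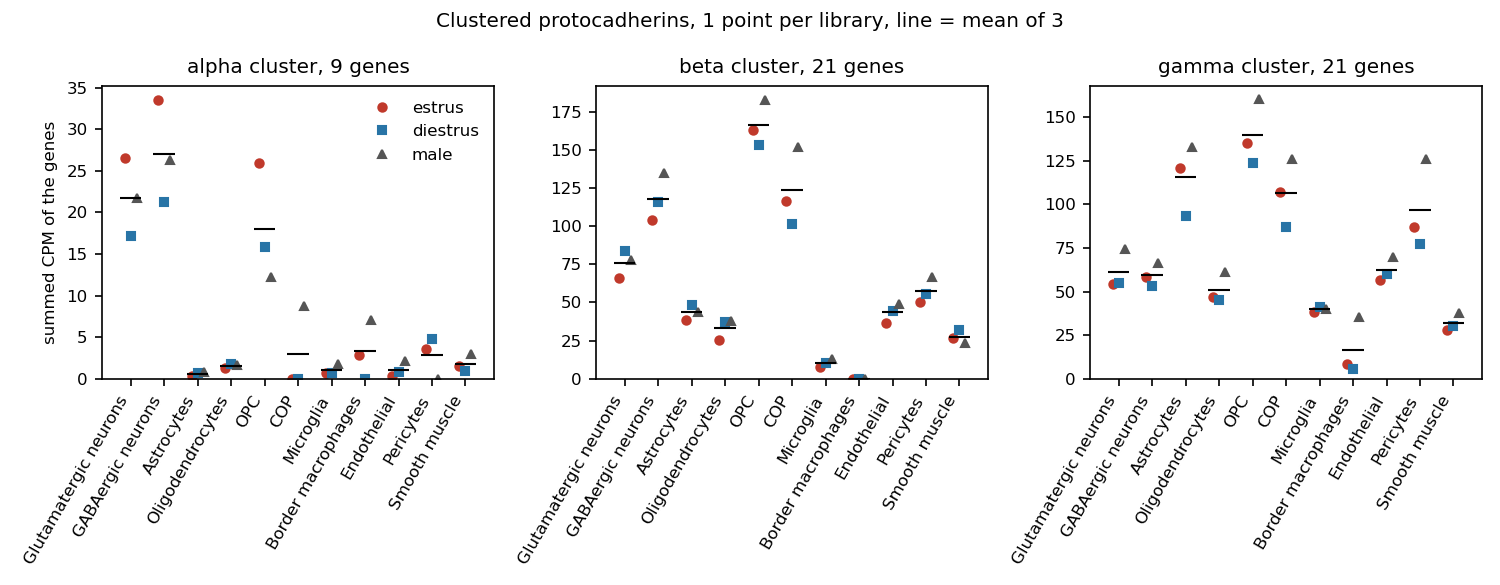
Summed CPM of the alpha, beta and gamma clusters in the 11 broad classes, 1 point per library and a line at the mean of 3, with vertical axes from 0. Beta genes are highest in OPC at 154 to 183 CPM, alpha genes are near 0 in astrocytes, and gamma genes are at 124 to 160 CPM in OPC and 93.3 to 133 CPM in astrocytes.

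Single cells held few of the 51 clustered genes at this depth, and only cells with at least 10000 UMIs entered. After thinning to 10000 UMIs, glutamatergic neurons had a mean of 1.36, 1.41 and 1.51 genes detected, and 25.2%, 24.9% and 22.0% of them had none. GABAergic neurons had 1.64, 1.64 and 1.98, astrocytes 1.27, 1.35 and 1.71, and oligodendrocytes 0.702, 0.809 and 0.891. Only the deepest astrocytes entered, 90, 71 and 41 of 1363, 876 and 1510 cells. Of 1557, 1927 and 1807 glutamatergic neurons, 1403, 1520 and 1122 entered. OPC could be read in diestrus alone, with 2.56 over 52 cells. GABAergic neurons, and OPC in diestrus, were above glutamatergic neurons, astrocytes overlapped glutamatergic neurons, and oligodendrocytes were below both. These numbers are limited by depth and by the exon bases that gene rows share, and give no count of isoforms per cell.

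The partners of these proteins were read from fixed lists. Over all genes tested, 17.1% were higher and 14.4% lower in glutamatergic than in GABAergic neurons, and 40.1% were higher and 28% lower in neurons than in the other classes. Of 7 catenins, 3 were higher in glutamatergic than in GABAergic neurons and 0 lower: Jup by 1.17 (SE 0.21), Ctnnd1 by 0.94 (SE 0.19) and Ctnnb1 by 0.61 (SE 0.17). Against the other classes, 3 were higher in neurons, led by Ctnna2 (2.89, SE 0.12) and Ctnnd2 (2.73, SE 0.10), and 4 lower, with Ctnna1 at -2.40 (SE 0.11). Of 9 WAVE complex genes, 5 were higher and 1 lower in glutamatergic than in GABAergic neurons, Wasf1 at 1.45 (SE 0.26) and Wasf3 at -0.97 (SE 0.21). Both kinases were higher in glutamatergic neurons, with Ptk2b, the kinase Pyk2 that clustered protocadherins inhibit, at 3.73 (SE 0.31). Of 11 tested large cadherins, 3 were higher and 5 lower, Fat3 at 2.35 (SE 0.18) and Dchs1 at -3.92 (SE 0.33). Of 5 regulators of the clustered genes, among them Ctcf and Rad21, which shape promoter choice, 0 were called either way by edgeR and 0 had an unadjusted p under 0.05, while all 5 were lower in neurons than in the other classes. Of 3 shedding proteases, Adam10 was higher in glutamatergic neurons by 0.58 (SE 0.14), and the other two were not called.

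Between libraries no test was possible, because each condition has 1 library. Ratios of CPM + 1 are given with exact binomial intervals at 95% of the ratio without the added 1, which cover counting error only. In glutamatergic neurons the members' median log2 ratio was -0.07 for estrus over diestrus, beside -0.01 over all genes, and 29 of 74 members were higher in estrus (background 48.9%). For estrus over male the median was -0.17 beside -0.06, with 23 of 70 higher (background 44.3%), and for diestrus over male -0.04 beside -0.04, with 29 of 68 higher (background 40.2%). In GABAergic neurons the medians were -0.25 beside -0.02 (7 of 26 higher, background 48.4%), -0.33 beside -0.06 (5 of 26 higher, background 44.3%) and -0.11 beside -0.02 (13 of 29 higher, background 45.1%). The first of these was -0.044 with no UMI minimum and -0.00608 with a correction for gene length, and the second -0.10 with that correction. These comparisons share libraries with one another.

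Among members with a mean of at least 20 CPM in glutamatergic neurons, Cdh9 had the lowest ratio of estrus to diestrus, at 38.7, 95.7 and 91.9 CPM. Its estrus level was below both others, with a log2 ratio of -1.28 to diestrus (interval -1.38 to -1.24) and -1.23 to male (interval -1.33 to -1.17). With the 6 subclasses weighted alike these were -0.81 and -0.89. Cdh18, at 304, 557 and 513 CPM, had a ratio of -0.87 to diestrus, which was -0.20 with subclasses weighted alike. Cdh20 was 12, 22.3 and 29.6 CPM, with -1.23 for estrus over male, and Pcdh11x 35.5, 57.3 and 78.6 CPM, with -1.12. In the other direction, Cdh22 was 27.0, 18.4 and 16.3 CPM, with ratios of 0.53 to diestrus and 0.70 to male, which fell to 0.22 and 0.41 with subclasses weighted alike. For diestrus over male, among members of at least 20 CPM, the lowest was Cdh7 (28.6 against 42.2 CPM, -0.55) and the highest Pcdh7 (533 against 464 CPM, 0.20).

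In GABAergic neurons the lowest ratios to diestrus were those of Cdh12 (102, 201 and 183 CPM, -0.97), Cdh20 (44.7, 86.1 and 69.6 CPM, -0.93) and Pcdh15 (236, 395 and 374 CPM, -0.74). The Cdh20 ratio was -0.30 with subclasses weighted alike. Cdh12 and Pcdh15 were also lowest to male, at -0.83 and -0.66. The highest ratio to diestrus was 0.42 for Cdh7, at 40.4, 30.0 and 53.2 CPM, whose diestrus level was also the lowest against male (-0.81). Pcdh8 (79.1, 69.0 and 79.7 CPM) and Pcdh10 (230.1, 202 and 216 CPM) differed little.

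Several values moved with the libraries. Median UMIs per glutamatergic neuron were 38667, 26641 and 15487, oligodendrocyte markers summed to 236, 391.98 and 522 CPM in glutamatergic neurons, and L6 CT markers summed to 435, 959.7 and 918 CPM there. The members' median length was 95.4 kb, against 23.3 kb for all tested genes. The 32 members outside the clusters had a median of 136.7 kb, but the 21 beta genes 3.72 kb. Alpha genes overlap one another in their spans, and so do gamma genes. The 6 members over 500 kb had a median ratio of -0.63 for estrus over diestrus and -0.65 for estrus over male in glutamatergic neurons, those of 100 to 500 kb had 0.0032 and -0.19, and those up to 100 kb had -0.07 and -0.08. The medians did not fall steadily with length for estrus over diestrus. The part of these values in the ratios was not tested.

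**Figure D5:**
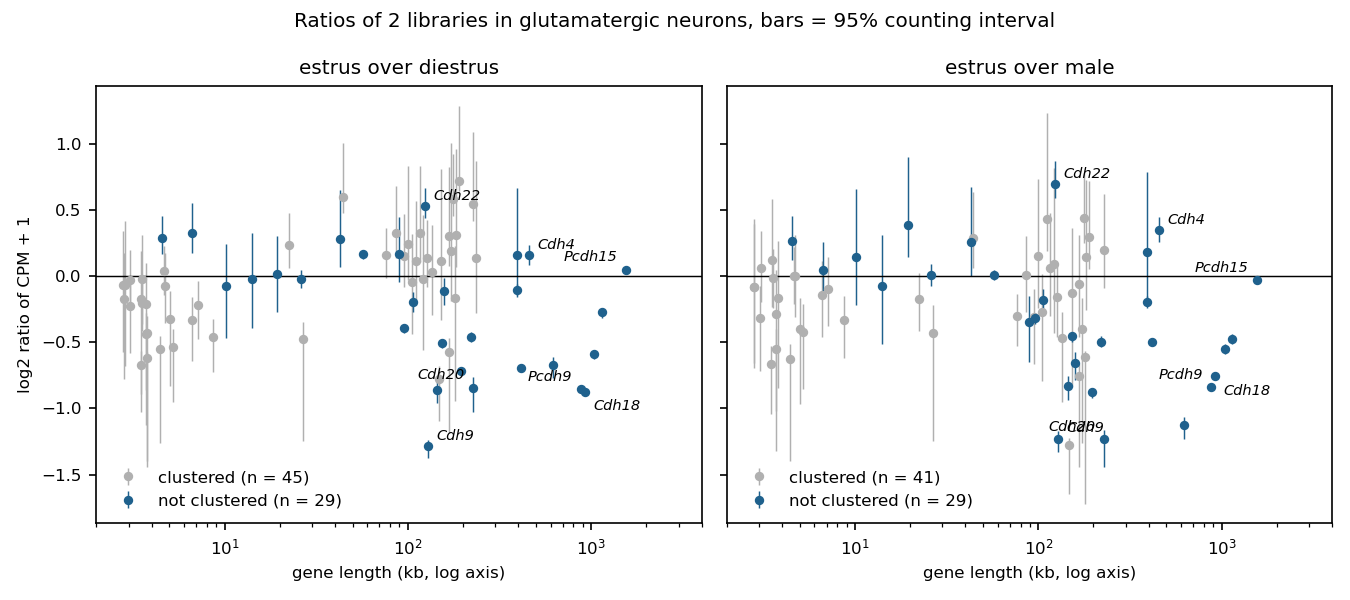
Log2 ratio of CPM plus 1 in glutamatergic neurons against gene length in kb on a log axis, for estrus over diestrus and estrus over male. Each point is a member with at least 100 UMIs over both libraries, and grey marks clustered genes. Bars are 95% counting intervals of the ratio without 1 added, extended to the point where it lay outside. Members over 500 kb lie mostly below 0, with Pcdh15 near 0, and Cdh9 is lowest of the non-clustered genes for estrus over diestrus at -1.28.

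Genes with levels most like those of 3 members were read across 60 sums of 20 classes in 3 libraries, which share libraries and depth. For Cdh9 the highest Pearson correlations of log2(CPM + 1) were with Gria1 (0.88), Slc7a14 (0.87), Cgref1 (0.86), Neto1 (0.86) and Chrm3 (0.86). For Cdh13 they were with Opcml (0.88), Csmd1 (0.86), Arhgap20 (0.85), Lrrtm4 (0.85) and Gm48091 (0.84), and for Pcdh9 with Magi2 (0.93), Mdga2 (0.92), Naaladl2 (0.92), Phactr3 (0.91) and Omg (0.91).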

How the data were processed

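Single-cell RNA was measured in 3 libraries, each a pool of 2 mice. Deposited values are UMI counts per gene and cell barcode, made by the authors with Cell Ranger, whose version is 3.0.2 per the submitters' processing notes and 7.0.0 per the file headers. Cells with at least 500 genes, at most 15% mitochondrial and at most 10% hemoglobin UMIs were kept. Classes came from marker gates without member genes: at least 3 markers, and a second class at no more than 0.5 of the first. Cells marked by 2 classes, as doublets can be, were thereby left out, and no doublet caller set the main classes. Counts were summed per library and class (at least 30 cells, 15 for GABAergic subclasses) and tested with edgeR 4.0.16 in R 4.3.3, with library as a term and Benjamini-Hochberg adjustment over all genes. VLMC, ependymal cells, neuroblasts, lymphocytes and L6b cells were too few and not compared. The test was tried on simulated data. Between libraries, log2 ratios of CPM + 1 carry only counting intervals of the ratio without the added 1. Named are the 3 highest members per class, the 3 largest called contrasts and the 3 extreme ratios each way at 20 CPM or more, and the subfamilies. The members, lists and rules were chosen with earlier results of these data known. Alternatives were DESeq2 1.42.0, other scaling and filters, stricter gates, clusters (scanpy 1.11.5), Scrublet scores up to 0.3 (added after seeing the data), each library left out, and a correction for gene length. Total UMIs per library were 152291602, 144738154 and 115632520.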

Additional observations from a re-analysis of the deposited data

Results flagged for a closer look

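L6b cells, the deepest cortical neurons, were outside the comparisons because the estrus library held only 5 of them, beside 42 in diestrus and 28 in the male library. Over the diestrus and male libraries, 3 members had higher levels there than in any glutamatergic subclass compared. Cdh18 had a mean of 1937 CPM (1788 and 2087), above 1417 CPM in L5/6 NP cells. Cdh13 had a mean of 759.5 CPM (772 and 747), above 527 CPM in L5 ET cells. Pcdh11x had a mean of 263.3 CPM (226 and 301), above 90.5 CPM in L2/3 IT cells. None of these differences was tested.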

How the results depend on the processing

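Across the alternatives run, 708 values of named class contrasts kept their direction and side of the threshold, 12 were no longer called and 2 reversed. With clusters in place of gates, border macrophages turned to 1.17 for Cdh19 (adjusted p = 0.054) and 0.68 for Pcdh9 (adjusted p = 0.013), and COP was not a named class. Members higher in glutamatergic neurons were 7 with no replicate block and 6 to 15 with 1 library left out, and members lower there 8 to 15. Over all genes, that contrast called 5446 in the main fit and 4032 with no replicate block. With 1 library left out it called 2875 to 6237. Members lower in neurons than in other classes were 10 with DESeq2 and 2 to 5 with 1 library left out. Over all genes, that contrast called 11788 in the main fit, 13364 with DESeq2 and 10158 to 11015 with 1 library left out. Of the named library ratios, 292 stayed within their counting interval, 65 moved and 3 reversed: Pcdh8 for estrus over diestrus in GABAergic neurons to -0.13 and Pcdh18 for estrus over male to -0.00035 with the length correction, and Pcdh8 for estrus over male to 0.052 with TMM scaling. The members' median ratio of estrus over diestrus in GABAergic neurons was -0.044 with no UMI minimum and -0.00608 with the length correction, and that of estrus over male -0.10 with the length correction. The cause was not tested. No paired analysis was possible between conditions because each has 1 library. Low UMIs per cell and exon bases shared between gene rows limit the clustered genes.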
